A study of Mus musculus with 36 samples.

Results

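Bco1, Bco2, Scarb1 and Cd36 encode the carotenoid oxygenases and the lipid receptors through which cells take up and cut carotenoids, the pigments that tomato brings into the diet. The genes were chosen by name for these roles and by no cut on a measured value, although earlier results of these data were known. They are 4 of the 53715 gene identifiers in the deposited count table of mouse liver. All 4 were found by Ensembl identifier and all 4 passed the filter on low counts, among 14068 genes that were tested.

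BCO1 is a cytosolic enzyme that cuts provitamin A carotenoids such as β-carotene at their centre to give retinal, the aldehyde of vitamin A. BCO2 is a mitochondrial enzyme that cuts carotenoids away from the centre and accepts many that do not yield vitamin A, among them lycopene, the main pigment of red tomato. SR-BI, the product of Scarb1, takes cholesteryl esters from high-density lipoprotein and also takes up carotenoids, and CD36, a fatty acid translocase, belongs to the same class B scavenger receptor family. In the intestine the retinoic acid-induced factor ISX represses both Bco1 and Scarb1, so that vitamin A status limits further carotenoid uptake and cleavage. Liver receives carotenoids with lipoproteins, and its stellate cells store vitamin A.

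Liver transcripts were counted by RNA-seq in 36 male C57BL/6 mice of 10 weeks of age, with 1 library per mouse number and 12 libraries per diet. The Control group ate the purified AIN93G diet, the Red group a diet holding 10% by weight of red tomato powder, and the Tangerine group a diet holding 10% of tangerine tomato powder, from 4 weeks of age and for 6 weeks. Macronutrients were matched between the diets, and the tangerine variety is known for holding its lycopene mainly in cis form. The labels name no genetic change in any group, and the design speaks of 11 to 12 mice a group where 12 libraries a group are in the table.

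Total counts ran from 21290169 to 33810573 per library, with a median of 27002946, and at these depths the 4 genes were read with 110 counts or more in each library. Hepatocyte markers (7 of 7 with counts) summed to 91140 to 135100 counts per 1000000 counts (CPM) in each library. A few libraries stood apart in markers of other cells. Red 186 held adipocyte markers at 6.74 CPM (223 counts, against 12 or fewer in each other library), muscle markers at 23.0 CPM and T cell markers at 153 CPM, and Tangerine 216 held pancreatic acinar markers at 11.3 CPM. Tangerine 192 had the highest cholangiocyte marker sum (111 CPM, against a median of 19.6), and Control 137 had the lowest sums for sinusoidal endothelial cells (72.6 CPM) and Kupffer cells (85.3 CPM). Tangerine 225 had the next lowest of both (106.5 and 118.8 CPM). These 5 libraries held several of the extreme values given below, and in bulk tissue fewer cells of a type cannot be told apart from less RNA per cell. Control 137 also had the smallest total count. Control 137 and Tangerine 225 were also extreme in a library measure given below. In these libraries cell makeup cannot be told apart from an effect of the library.

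Bco1 (ENSMUSG00000031845) lies on the plus strand at chr8:117095854-117133720 of GRCm38 in the GENCODE M21 annotation. It is the member whose start region is shown, because the mouse Bco1 promoter is known to carry an element for peroxisome proliferator-activated receptors, whose genes are among those measured below. The 120 bases before its RefSeq start, at chr8:117095745-117095864 of GRCm38.p6, read 5′ to 3′ on the plus strand as follows, with the match to the DR1 element in capitals.
Bco1: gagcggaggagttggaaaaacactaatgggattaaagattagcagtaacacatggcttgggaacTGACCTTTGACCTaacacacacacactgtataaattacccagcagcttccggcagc
The motif searched, on both strands, was the nuclear receptor half-site AGGTCA repeated in the same direction after a spacer of 1 base of any kind. It matched on the minus strand, 56 to 44 bases before the start, and the same letters occurred in 13 of the 32851 promoters of 300 bases in the RefSeq table (0.0396%). Bco1 also had the letters TATAAA beginning 28 bases before the start, a motif present in 13.6% of these promoters. The RefSeq promoters of Bco2 (2 entries) and of Cd36 (1 entry) did not hold the DR1 letters in these windows, and Scarb1 was not in the table. Bco1 and Bco2 are both carotenoid oxygenases, and their levels are described first.

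Bco1 showed no difference between the diets beyond the spread between mice. In the Control livers its level ran from 11.7 to 18.5 CPM with a median of 14.3. In the Red livers it ran from 11.6 to 17.8 CPM with a median of 14.3, and in the Tangerine livers from 10.0 to 18.3 CPM with a median of 13.6. The ranges overlapped almost wholly, and the lowest value in each tomato group belonged to Red 186 and Tangerine 216, the livers with markers of other tissues. The mean was 14.5 ± 1.88 CPM in Control, 14.3 ± 1.82 in Red and 13.9 ± 2.65 in Tangerine (SD, n = 12 each). The log2 fold change was -0.02 for Red against Control (SE 0.087, 95% interval -0.19 to 0.16, edgeR adjusted p = 0.958). It was -0.06 for Tangerine against Control (95% interval -0.23 to 0.12, edgeR adjusted p = 0.9999) and -0.04 for Tangerine against Red (-0.22 to 0.14, edgeR adjusted p = 0.873). In linear terms the intervals left room for a level in Red livers between 0.874 and 1.12 times, and in Tangerine livers between 0.851 and 1.09 times, that of Control livers.

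Bco2, the oxygenase that accepts lycopene, also showed no difference between the diets beyond the spread between mice, which was the narrowest of the 4 genes. Its identifier is ENSMUSG00000032066, on the minus strand at chr9:50533087-50555181. Control livers ran from 13.5 to 17.9 CPM with a median of 15.8, Red livers from 12.1 to 20.2 CPM with a median of 16.3, and Tangerine livers from 13.9 to 19.5 CPM with a median of 16.1. The highest and the lowest of the 36 values were both in Red livers, the highest in Tangerine was Tangerine 225, and 7 of 12 livers in each tomato group lay above the Control median. Group means were 15.8 ± 1.30, 16.2 ± 2.41 and 16.1 ± 1.71 CPM in Control, Red and Tangerine (SD, n = 12 each). The log2 fold change was 0.04 in Red (SE 0.069, 95% interval -0.10 to 0.18, edgeR adjusted p = 0.836) and 0.03 in Tangerine (-0.11 to 0.17, edgeR adjusted p = 0.9999), each against Control. Tangerine against Red gave -0.02 (-0.16 to 0.12, edgeR adjusted p = 0.938). The interval thus reached from 0.935 to 1.13 times the Control level for Red livers and from 0.924 to 1.12 times for Tangerine livers. An antisense gene, Gm47077, shares 161 exon bases with Bco2, and it held 21 counts over all libraries together, against 15702 for Bco2.

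**Figure D1:**
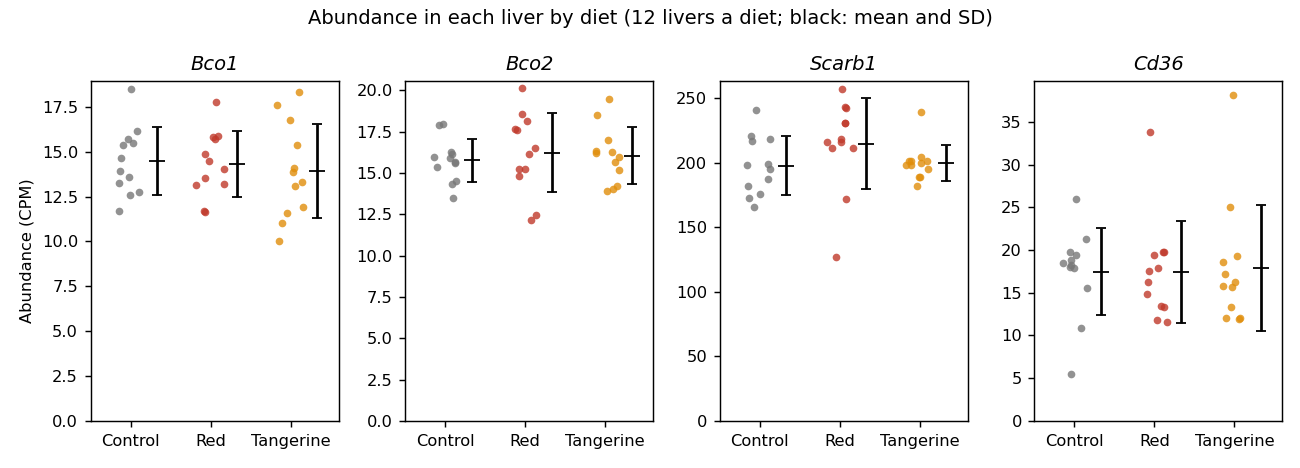
Level of each gene in each of the 36 livers, in CPM on the y axis, by diet on the x axis; points are livers, and the bar and error bar give the group mean and SD (n = 12). The diets overlap for all 4 genes, Red 186 is the lowest liver for Scarb1 (126.9 CPM), and Cd36 spreads from 5.50 to 38.1 CPM.

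Scarb1, the receptor for high-density lipoprotein, had the highest level of the 4 genes and the largest difference between diets in the estimate, which did not pass the test. Its identifier is ENSMUSG00000037936, on the minus strand at chr5:125277087-125341094. Control livers ran from 165.6 to 241 CPM with a median of 196.7. Red livers ran from 126.9 to 257 CPM with a median of 217.5, and Tangerine livers from 182.5 to 239 CPM with a median of 199.05. In the Red group 10 of 12 livers exceeded the Control median and 3 of them exceeded every Control liver, while Red 186 lay below them all. The highest Control liver was Control 137, the lowest Tangerine liver was Tangerine 216 and the highest Tangerine liver was Tangerine 225. Of the 12 Tangerine livers, 1 lay above the Red median. Means were 197.9 ± 22.8 CPM in Control, 214.9 ± 35.1 in Red and 200.02 ± 14.0 in Tangerine (SD, n = 12 each). The log2 fold change for Red against Control was 0.12 (SE 0.075, 95% interval -0.03 to 0.27), with an unadjusted p of 0.1215 and an edgeR adjusted p of 0.516. For Tangerine against Control it was 0.02 (-0.14 to 0.17, edgeR adjusted p = 0.9999), and between Tangerine and Red it was -0.10 (-0.26 to 0.05, unadjusted p = 0.177, edgeR adjusted p = 0.530).

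The Scarb1 estimate depended on Red 186 more than on any other liver. Without it the log2 fold change for Red against Control was 0.17, with an unadjusted p of 0.00685 and an edgeR adjusted p of 0.181, and Tangerine against Red became -0.16. Over the 12 fits made with other settings or other sets of libraries, Red against Control lay between 0.11 and 0.20 and the adjusted p between 0.051 and 0.705. Scarb1 therefore stayed above the adjusted threshold of 0.05 in every fit that was run.

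Cd36 varied widely between mice on the same diet, and its group means were close together. Its identifier is ENSMUSG00000002944, on the minus strand at chr5:17781690-17888801. Control livers ran from 5.50 to 26.0 CPM with a median of 18.4, Red livers from 11.6 to 33.8 CPM with a median of 16.9, and Tangerine livers from 12.0 to 38.1 CPM with a median of 16.0. The lowest value was that of Control 137, and the highest in Red and Tangerine were those of Red 186 and Tangerine 192, and the lowest in Tangerine was that of Tangerine 225, all livers that stood apart in their markers. In each tomato group 4 of 12 livers lay above the Control median. Means were 17.5 ± 5.14, 17.4 ± 5.95 and 17.9 ± 7.39 CPM in Control, Red and Tangerine (SD, n = 12 each). The log2 fold change was -0.00 for Red (SE 0.192, 95% interval -0.39 to 0.39, edgeR adjusted p = 0.997) and 0.03 for Tangerine (-0.35 to 0.42, edgeR adjusted p = 0.9999), each against Control. Tangerine against Red gave 0.04 (-0.35 to 0.43, edgeR adjusted p = 0.951). A difference of Cd36 between 0.762 and 1.31 times the Control level was thus within the interval for Red livers, and one between 0.782 and 1.34 times for Tangerine livers. The Red estimate moved with the fit: it was -0.25 with limma (adjusted p = 0.261), -0.22 without the 4 libraries Control 137, Red 186, Tangerine 192 and Tangerine 216, and -0.17 with surrogate variables. Over 12 alternative fits it lay between -0.25 and 0.02, with adjusted p between 0.261 and 1.0.

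**Figure D2:**
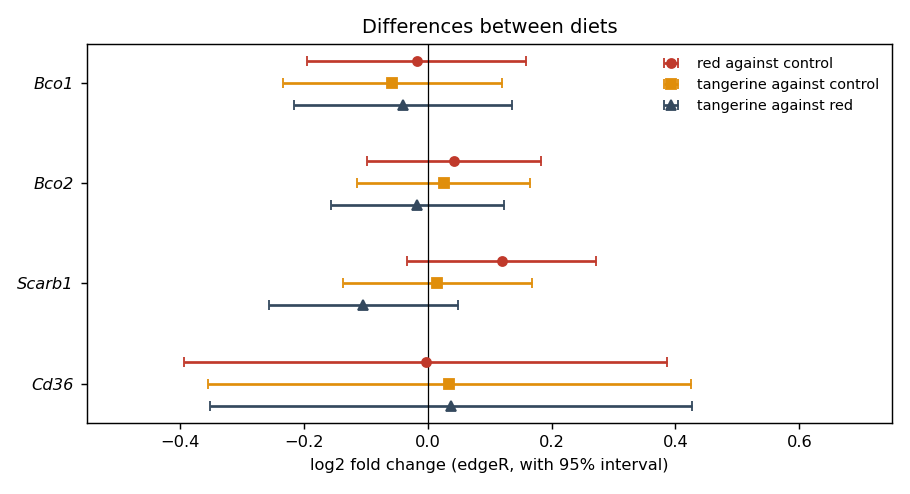
Log2 fold change from edgeR on the x axis, with its 95% interval as the bar, for each gene on the y axis and for 3 comparisons of diets. Every interval crosses 0, from the narrow ones of Bco2 (-0.10 to 0.18 for Red against Control) to the wide ones of Cd36 (-0.39 to 0.39).

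Counted together, 0 of the 4 genes passed an edgeR adjusted p of 0.05 in any comparison. Over all genes tested, 0.149% were called for Red against Control (0.0498% higher and 0.0995% lower), 0.0142% for Tangerine against Control, and 1.71% between Tangerine and Red (0.732% higher and 0.981% lower). With both tomato diets set against Control, 0.00711% were called, and 1.18% in the joint test of any difference among the 3 diets. At an unadjusted p under 0.05 the main edgeR fit also gave 0 of the 4 genes in each comparison. Over all genes 13.3% passed in Red and 5.47% in Tangerine against Control, and 15.1% between the tomato diets. With both tomato diets against Control 6.77% passed, and 13.9% in the joint test. DESeq2 and limma called 0 of the 4 after adjustment as well, and limma gave 1 of 4 at an unadjusted p under 0.05, Scarb1, for the Red diet set against Control, between the tomato diets and in the joint test. Over all 14068 genes limma gave 3713, 2916 and 3639 at that level in these comparisons, so 1 of 4 is near its background. In the edgeR fit, a count of 0 among 4 is likewise near what the background gives. The other tools called more genes after adjustment, for Red against Control 1504 with limma and 167 with DESeq2, where edgeR called 21. On simulated counts of this design, with 12 libraries a group, 79% of 100 genes changed 1.5-fold were recovered for Red against Control. Of 100 genes changed 2-fold, 94% were recovered. The changed genes were picked at random, and each gene was drawn on its own, without effects shared between genes. These rates are therefore not those of the 4 genes, and smaller changes were not simulated.

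Levels can be set against each other only per transcript length, here as mean CPM per kilobase of exon over the 36 livers. On that scale Scarb1 stood at 24.0, above 88.8% of genes tested, Bco2 at 7.56, Bco1 at 5.60 and Cd36 at 4.91. Scarb1 was above each of the other genes in 36 of 36 livers, with a median ratio of 3.12 to Bco2, 4.39 to Bco1 and 5.07 to Cd36. Bco2 lay above Bco1 in 33 of 36 livers, with a median ratio of 1.39. Bco1 and Cd36, the neighbours at the lower end, did not separate, since Cd36 was above Bco1 in 13 of 36 livers. The order was the same when the longest transcript gave the length (66.0, 7.56, 6.09 and 5.18 CPM per kilobase).

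The 4 genes also differed in how far mice on one diet lay apart. The SD of log2 CPM between mice, with each diet's mean removed, was 0.17 for Bco2, 0.19 for Scarb1, 0.22 for Bco1 and 0.50 for Cd36. The Cd36 spread was wider than that of 97.91% of the 2302 genes of similar level, whose median SD was 0.18. The other members lay within the middle of genes like them, at 39.08% for Bco2, 58.23% for Scarb1 and 64.63% for Bco1. From lowest to highest liver, Cd36 spanned 6.93-fold, Scarb1 2.03-fold, Bco1 1.84-fold and Bco2 1.66-fold.

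Livers with more Cd36 had less Scarb1. Over the 36 livers, with diet means removed from log2 CPM, Pearson's r was -0.57 (permutation p = 0.00101, Benjamini-Hochberg adjusted over the 6 pairs of genes 0.00606) and Spearman's rho was -0.44 (permutation p = 0.00733, adjusted 0.0320). Without the 2 livers farthest from the Scarb1 median, Red 186 and Red 170, r was -0.48 (permutation p = 0.0042). Within diets r was -0.66 in Control, -0.75 in Red and -0.33 in Tangerine, over 12 livers each. Leaving out each liver in turn gave values between -0.60 and -0.47. Without 4 of the libraries that stood apart in their markers (Control 137, Red 186, Tangerine 192 and Tangerine 216), r was -0.32. The adjusted permutation p was then 0.147, so the relation no longer passed the test. Tangerine 225, which also stood apart, was kept in that set. It had the highest Scarb1 (239 CPM) and the lowest Cd36 (12.0 CPM) of the Tangerine livers. Leaving out Tangerine 225 alone gave an r of -0.55, and leaving it out together with the other 4 was not tested. Among the settings run for this pair, the adjusted p ranged from 0.0048 to 0.147.

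Bco2 and Scarb1 rose and fell together in rank, with a rho of 0.42 (permutation p = 0.0107, adjusted 0.0320), while Pearson's r of 0.39 (permutation p = 0.0184) had an adjusted value of 0.0553. Without the 2 livers farthest from the Bco2 median, r was 0.41 (permutation p = 0.0145). Within diets r was 0.13 in Control, 0.44 in Red and 0.64 in Tangerine. The other 4 pairs did not pass the test by either measure. Bco1 and Bco2, which share β-carotene as a substrate, had an r of -0.24 (adjusted permutation p = 0.197), and Bco1 and Cd36 had an r of -0.25 (adjusted permutation p = 0.197).

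The same spread moved with slopes taken from the expression values of each library. Whether these slopes reflect RNA handling or the makeup of the tissue was not tested. For each library a slope of log2 expression on GC content and one on transcript length were taken over 10968 genes, as a measure added after the data were seen, and 8 relations were tested. Cd36, whose longest transcript is 38.4% GC, was lower in libraries with a higher GC slope (r = -0.60, permutation p = 0.0001, adjusted 0.00056, rho = -0.59, adjusted 0.00064). It was higher in libraries where long transcripts were better represented (r = 0.63, permutation p = 0.00014, adjusted 0.00056, rho = 0.51, adjusted 0.00408). Without Control 137 and the liver next farthest from the median, these became -0.41 (permutation p = 0.0169) and 0.40 (permutation p = 0.0187). Bco1, whose longest transcript is 49.8% GC, went the other way with the GC slope (r = 0.56, permutation p = 0.00038, adjusted 0.00101, rho = 0.61, adjusted 0.00064, and r = 0.54 without 2 livers). Scarb1 fell with the length slope (r = -0.49, permutation p = 0.0061, adjusted 0.0122, rho = -0.45, adjusted 0.0132, and r = -0.37 without 2 livers). Cd36 rose with it, although the longest transcripts of the 2 genes are 3093 bases (Scarb1) and 3399 bases (Cd36). Bco2, whose longest transcript is 47.1% GC, did not pass the test against either slope (r = -0.11 with the GC slope and -0.12 with the length slope). With both slopes removed as well as the diet means, Scarb1 and Cd36 had an r of -0.38 with an adjusted permutation p of 0.0898. The slopes' part in the relation beyond that value was not tested. The GC slope was not balanced over the diets, with medians of -0.115 in Control, 0.0702 in Red and -0.0539 in Tangerine. Control 137 had the lowest length slope (-0.155) and the highest GC slope (0.297) of the 36 libraries. Tangerine 225 had the next lowest length slope (-0.0781). With both slopes in the edgeR fit, Red against Control gave -0.08 for Bco1 (edgeR adjusted p = 0.684) and 0.02 for Cd36 (edgeR adjusted p = 0.971).

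**Figure D3:**
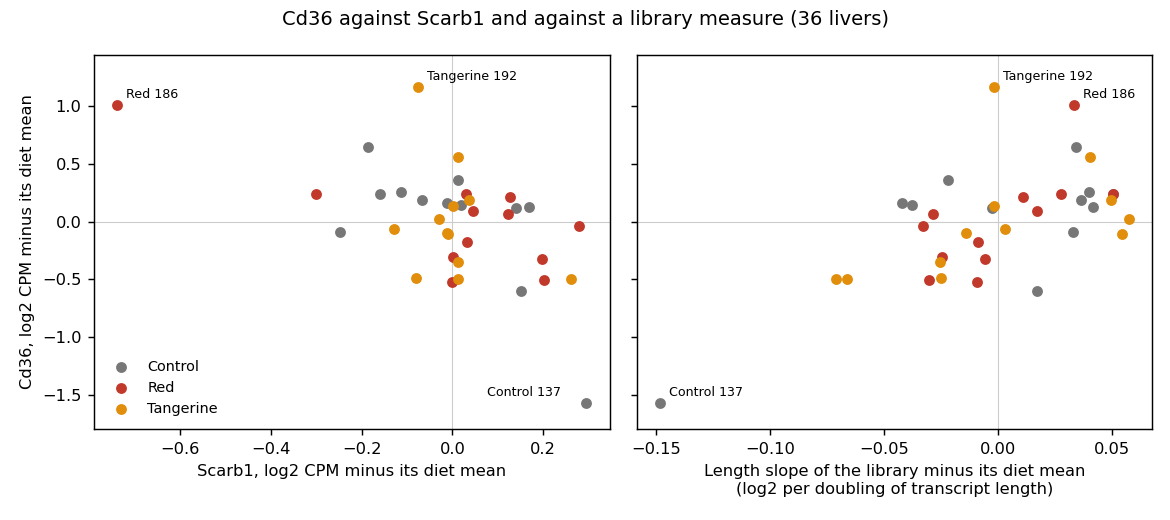
Log2 CPM of Cd36 minus its diet mean on the y axis, against the same for Scarb1 (left) and against the length slope of the library minus its diet mean, in log2 per doubling of transcript length (right); points are the 36 livers, coloured by diet. Cd36 falls with Scarb1 (r = -0.57) and rises with the length slope (r = 0.63), with Control 137, Red 186 and Tangerine 192 at the ends.

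The genes were further set against a score of clock gene expression and against the summed markers of stellate, sinusoidal endothelial, Kupffer and adipocyte cells, in 20 relations. Diet means were removed, so these relations do not show differences of the score between diets. The score ran from -4.96 to 3.44 in Control, from -5.27 to 1.32 in Red and from -1.24 to 4.53 in Tangerine livers. Most Red scores were negative and most Tangerine scores positive, so diet and clock state overlapped in part. A fit with the clock score as covariate called 0 of the 4 genes in each comparison of diets. Over all genes that fit called 0 between the tomato diets, where the main fit called 241. Whether diet or clock state lay behind this loss of calls was not tested. By Pearson's r, 0 of the 20 relations passed an adjusted permutation p of 0.05. The largest were Bco2 with the clock score (r = -0.46, adjusted permutation p = 0.0848) and Bco1 with the adipocyte markers (r = -0.43, adjusted permutation p = 0.0848). The adipocyte sums lay near the floor, with a median of 0.0752 CPM and a minimum of 0 in each diet. For that reason 0.01 was added to them before log2 was taken. Cd36, which endothelial and Kupffer cells also express, had an r of 0.39 with the sinusoidal endothelial markers (adjusted permutation p = 0.147). These markers (7 of 7 with counts) summed to 72.6 to 216 CPM in Control, 143 to 213 in Red and 107 to 205 in Tangerine livers. The correlation was -0.32 without Control 137 and Tangerine 225, the livers with the lowest sums, so it rests on them.

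By their variation between livers, the genes most like each member were not the same from one member to the next. They are given as a description, over 36 livers that share library and depth effects. Bco1 ran most closely with Psmb2, a proteasome subunit gene (r = 0.78), Lgals9, which encodes galectin-9 (r = 0.78), and Maged1 (r = 0.78). Bco2 ran with Dlc1 (r = 0.76), the kinase gene Ptk6 (r = 0.75) and Khnyn (r = 0.73). Scarb1 ran with genes of secreted liver proteins, Plg for plasminogen (r = 0.87) and Itih3 for an inter-alpha-trypsin inhibitor chain (r = 0.84), and with Nit1 (r = 0.83). Cd36 ran with Rab8b, a vesicle transport GTPase gene (r = 0.83), Tab3, a signalling adaptor gene (r = 0.83), and the kinase gene Rps6ka3 (r = 0.81). At an absolute r of 0.5 or more, Cd36 went with 2561 of 10968 genes, Bco1 with 1638, Scarb1 with 750 and Bco2 with 212.

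Downstream of cleavage, retinal is carried, reduced, esterified or oxidised. Of 21 retinoid genes listed, 15 were tested and 0 rose or fell in any of the 3 comparisons between diets (edgeR adjusted p), with 3 in Red and 1 in Tangerine against Control, and 2 between the tomato diets, at an unadjusted p under 0.05. DESeq2 called 0 in each of these, and limma called 3 in Red against Control and 0 in the others. Over all 14068 genes limma called 1504, 2 and 619 in Red and Tangerine against Control and between the tomato diets. DESeq2 called 167, 7 and 421. At an unadjusted p under 0.05 edgeR gave 13.3%, 5.47% and 15.1% of all genes. These are the backgrounds for this list and the lists below. The median log2 fold changes of the retinoid genes were -0.04 in Red and -0.04 in Tangerine against Control and -0.01 between the tomato diets, beside -0.00, -0.01 and -0.00 over all genes. Rbp4, which carries retinol out of the liver in plasma, had means of 2752 ± 412, 2524 ± 246 and 2896 ± 291 CPM in Control, Red and Tangerine (SD, n = 12 each), and Tangerine against Red gave 0.20 (SE 0.071, edgeR adjusted p = 0.148). Isx, the intestinal repressor of Bco1 and Scarb1, was listed at 0 counts in 36 of 36 libraries. Rpe65, a related enzyme known from the retina, had at most 1 count in a library. Lrat, which esterifies retinol in stellate cells, was also listed at 0 in every library, although the other 7 stellate markers had counts and summed to 293 to 447 CPM. Cav1, a caveolar gene of endothelium on the fatty acid list, was listed at 0 in every library as well. Whether a gene listed at 0 was not transcribed or not counted by the authors' method cannot be told apart here, and no detection limit is drawn from these values.

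Among 22 lipoprotein and sterol genes, the surroundings of SR-BI, 21 were tested. Against Control, edgeR called 0 in Red and 0 in Tangerine (3 and 2 at an unadjusted p under 0.05), with medians of -0.02 and 0.04. In Red against Control DESeq2 called 1 and limma 4, beside 167 and 1504 over all genes, and in Tangerine both called 0. For Tangerine against Red 2 rose and 0 fell, beside 0.732% of all genes called higher, with a list median of 0.01. The list was chosen with earlier results of these data known, so that share is no test of the list. The 2 genes are named next. The 2 that rose were Abcg5 and Abcg8, whose products together pump sterols into bile. Abcg5 ran from 60.2 to 99.9 CPM (median 83.8) in Control, from 47.9 to 77.6 (median 68.0) in Red and from 71.0 to 102.8 (median 86.0) in Tangerine, and the tomato groups overlapped. Its log2 fold change was 0.35 for Tangerine against Red (SE 0.079, edgeR adjusted p = 0.0173) and -0.30 for Red against Control (edgeR adjusted p = 0.0729). Abcg8 ran from 82.8 to 168 CPM (median 124) in Control, from 75.7 to 120.5 (median 107) in Red and from 106 to 170 (median 132) in Tangerine. The log2 fold change of Abcg8 was 0.34 for Tangerine against Red (SE 0.086, edgeR adjusted p = 0.0300). Both calls were absent without Red 186 and Tangerine 216, and with the clock score or the mouse number in the fit. Calls over all genes also fell in these fits, from 241 to 86, 0 and 32.

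Lrp1, which clears lipoprotein remnants, gave a log2 fold change of 0.01 between Tangerine and Red (edgeR adjusted p = 0.985). Pdzk1, the adaptor that keeps SR-BI stable in hepatocytes, stood at 43.2 ± 4.18, 44.2 ± 4.53 and 44.1 ± 2.95 CPM in Control, Red and Tangerine (SD, n = 12 each). The Aster genes Gramd1a, Gramd1b and Gramd1c, whose proteins move sterols inward from the plasma membrane, had log2 fold changes of 0.05, 0.07 and -0.11 for Red against Control (edgeR adjusted p = 0.869, 0.876 and 0.547). Abca1, the cholesterol exporter, gave -0.09 (edgeR adjusted p = 0.730) and Lpl, the lipoprotein lipase gene, 0.44 (edgeR adjusted p = 0.479) in the same comparison. Tangerine 192, the liver with the highest cholangiocyte markers, held Lpl at 63.5 CPM, against a Tangerine median of 10.3.

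Fatty acid uptake genes, the company of CD36, gave 10 tested of 12 and 0 called in any of the 3 comparisons by edgeR (2, 0 and 2 at an unadjusted p under 0.05). DESeq2 also called 0, and limma called 1 in Red against Control, beside 1504 over all genes. The medians of the fatty acid uptake genes were 0.07 in Red and -0.02 in Tangerine against Control, and -0.10 between Tangerine and Red. Slc27a2 and Slc27a5, hepatic fatty acid transport proteins, had log2 fold changes of 0.12 and -0.06 for Red against Control (edgeR adjusted p = 0.710 and 0.699). Fabp1, the main fatty acid-binding protein of liver, stood at 4398 ± 740, 4584 ± 966 and 4016 ± 668 CPM in Control, Red and Tangerine. Fabp4, a binding protein of adipocytes and endothelium, reached 23.8 CPM in Red 186, the liver with the highest adipocyte markers, against a Red median of 3.88.

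Of 17 regulators and targets of the receptors, 16 were tested and 0 were called in any of the 3 comparisons by edgeR (3, 2 and 5 at an unadjusted p under 0.05), with medians of 0.05, -0.07 and -0.07. DESeq2 and limma each called 1 between Tangerine and Red, beside 421 and 619 over all genes, and 0 against Control. Pparg, a nuclear receptor that induces Cd36, stood at 4.54 ± 1.66, 5.31 ± 2.87 and 4.17 ± 2.18 CPM in Control, Red and Tangerine (SD, n = 12 each). Plin2, which coats lipid droplets, had means of 356 ± 74.4, 460.0 ± 92.8 and 340.3 ± 91.6 CPM, and its log2 fold change was 0.37 for Red against Control (edgeR adjusted p = 0.163) and -0.43 for Tangerine against Red (edgeR adjusted p = 0.0576). Cidec, another lipid droplet gene, gave 0.20 for Red against Control (edgeR adjusted p = 0.681). Nr1i2, the xenobiotic receptor PXR, and Nr1h3, the sterol receptor LXRα, gave -0.15 and 0.03 in that comparison (edgeR adjusted p = 0.589 and 0.854).

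**Figure D4:**
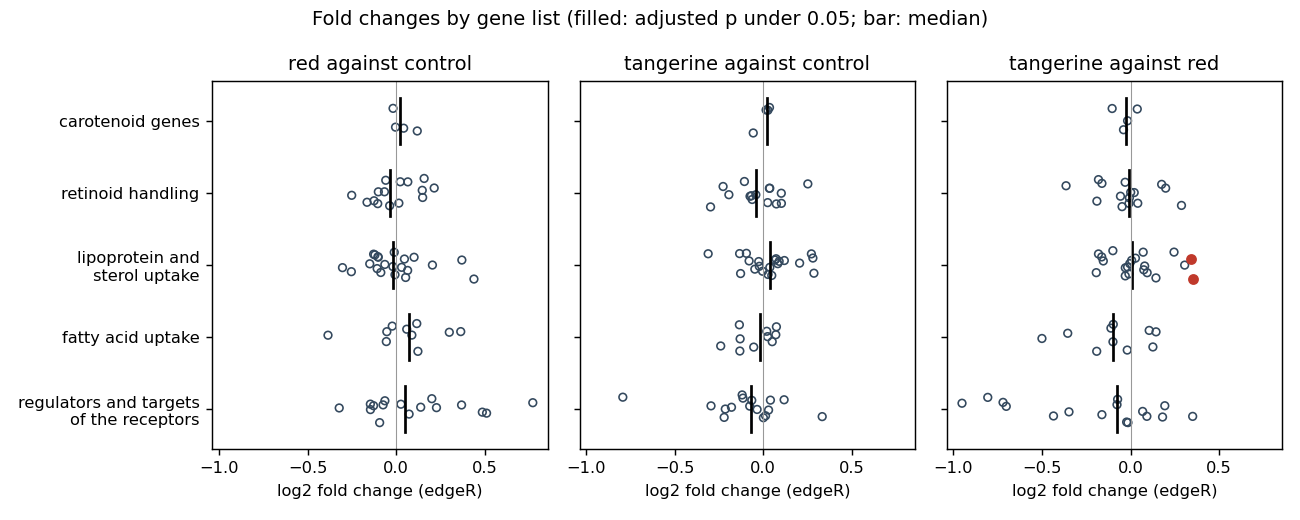
Log2 fold change from edgeR on the x axis for each tested gene of the carotenoid genes and the 4 surrounding lists on the y axis, in 3 comparisons of diets; the bar is the list median and filled points passed an adjusted p of 0.05. Only Abcg5 and Abcg8, at 0.35 and 0.34 for Tangerine against Red, are filled among the genes plotted.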

How the data were processed

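The authors deposited 1 table of 36 liver libraries, whose values are raw counts per gene, used here as deposited. Per the labels' protocols, column-purified RNA was made into directional libraries. FastQC, Trimmomatic, edgeR and GRCm38.p6 are named in the submitters' processing notes. The aligner, counter, annotation release and strand setting are not given in the sources used here. Symbols, positions and exon lengths came from GENCODE M21, and 95 identifiers without a symbol held 0.00177% of counts.

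The 4 genes and all lists were chosen with earlier results of these data known. Genes passed filterByExpr of edgeR 4.0.16 (count of 10), library sizes were scaled by trimmed mean of M values, and CPM values use these sizes. The quasi-likelihood F test was fitted to all 36 libraries without covariates, with Benjamini-Hochberg adjustment over 14068 genes and a threshold of 0.05. It was tested on simulated data. Named genes were the members, a list chosen by role, list genes past the threshold and the 3 genes most like each member. Some genes that this rule names are not reported here. Relations used 100000 permutations. No 2 libraries were near-duplicates (smallest chi-square per degree of freedom 13.7). Mouse numbers in the titles were read as separate mice; if they were not, p-values measure technical spread. Alternatives were DESeq2 1.42.0, limma 3.58.1, sva 3.50.0, other filters, covariates and sets of libraries.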

Additional observations from a re-analysis of the deposited data

Results flagged for a closer look

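The difference between the tomato diets itself passed the test for a pair of genes near Scarb1. Abcg5 was higher in Tangerine than in Red livers by 0.35 on the log2 scale (means 86.0 ± 12.4 and 67.5 ± 7.72 CPM, SD, n = 12 each, edgeR adjusted p = 0.0173). Abcg8 was higher by 0.34 (means 133 ± 20.6 and 105 ± 12.6 CPM, edgeR adjusted p = 0.0300). By edgeR, neither gene passed against Control in either tomato diet (Abcg5 in Red, adjusted p = 0.0729). Both calls between the tomato diets were lost with the clock score, with the mouse number, and without Red 186 and Tangerine 216. Over all 14068 genes the main fit called 241 between these diets, and those 3 fits called 0, 32 and 86. The loss was therefore not particular to this pair. The lipoprotein and sterol list had 3 genes called there with DESeq2, with limma, with only the groups compared and with the slopes. This list was chosen with earlier results of these data known.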

How the results depend on the processing

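The number of the 4 genes called was 0 in every comparison under every alternative run, including each fit that left out 1 of the 36 libraries. Of 188 log2 fold changes of these genes under alternatives, 168 kept their direction and 20 changed sign, all of them among values that did not pass the test, and the cause was not tested. For Red against Control, Bco1 became 0.045 with limma, 0.0074 without Red 186 and Tangerine 216, and 0.0161 without 4 of the libraries that stood apart. Tangerine 225 also stood apart in its markers and was kept in that last fit. In that comparison Bco2 became -0.0695 with the clock score, and Cd36 became 0.0004 under a mean log2 CPM of at least 1, 0.0024 with only the groups compared and 0.0224 with the GC and length slopes. Larger moves of Cd36 there kept the sign (-0.25 with limma, -0.22 without the 4 libraries, -0.17 with surrogate variables). For Tangerine against Control, Cd36 became -0.0937 with limma, -0.0617 with surrogate variables and -0.21 without the 4 libraries. For Tangerine against Red, Bco1 became 0.0066 with the clock score and 0.0132 with the slopes, and Bco2 became 0.12 with the clock score. For both tomato diets against Control, Bco1 became 0.0062 with limma and Bco2 -0.0071 with the clock score. Cd36 there became -0.17 with limma, -0.0314 with the clock score, -0.0427 without Red 186 and Tangerine 216, -0.11 with surrogate variables and -0.21 without the 4 libraries.

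Leaving out single libraries moved Cd36 for Tangerine against Control from -0.12 (without Tangerine 192) to 0.10 (without Control 189), and for Red against Control from -0.13 (without Red 186) to 0.06 (without Control 189). Pathway counts were compared under 5 alternatives (DESeq2 size factors, no filter, clock score, mouse number, and without Red 186 and Tangerine 216), and 91 of 100 stayed within 1.5 times. The lipoprotein and sterol list had 2 genes called for Tangerine against Red and 1 in the joint test, and each became 0 with the clock score, with the mouse number, and without Red 186 and Tangerine 216. Without a filter, the retinoid list had 1 called in the joint test, and the regulators had 1 for Tangerine against Red and 1 in the joint test, where 0 were called before. Fits beyond these 5 also moved list counts. With surrogate variables the regulators went from 0 to 2 in Tangerine against Control and the retinoid list from 0 to 2 between Tangerine and Red. Over all genes that fit called 100 and 769 in these comparisons, where the main fit called 2 and 241. It also called 1 retinoid gene in Red against Control, and 1 fatty acid gene and 1 regulator between Tangerine and Red. The regulators went from 0 to 1 between Tangerine and Red with the stricter filter (mean log2 CPM of 1). The lipoprotein list went from 2 to 1 there without the 4 libraries. Among relations, 24 of 30 kept their call. Bco1 with Cd36 became 0.19 with the slopes removed. Bco2 with Scarb1 passed at 0.48 without Red 186 and Tangerine 216, at 0.43 with the clock score removed and at 0.53 without the 4 libraries. This pair did not pass at 0.33 on CPM without the trimmed mean scaling (adjusted permutation p = 0.150). With the slopes removed it did not pass at 0.42 (adjusted permutation p = 0.0694). Scarb1 with Cd36 did not pass at -0.38 with the slopes removed and at -0.32 without the 4 libraries.

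The slopes, the 4 libraries left out and the single libraries left out were chosen after seeing the data. No paired analysis was possible because no mouse number occurs in more than 1 diet. Each of the 4 genes had 110 counts or more per library, and the coefficient of variation over all livers was 11.4% for Bco2, 12.7% for Scarb1, 14.7% for Bco1 and 34.4% for Cd36, whose intervals were the widest.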
